A study of Homo sapiens with 6 samples.

Results

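Genes of the nuclear pore complex and of nuclear transport were followed in the human neuroblastoma cell line SK-N-BE(2) after infection with a lentivirus carrying a hairpin against BRG1 (shBRG1, n = 3) or a non-silencing control hairpin (NSC, n = 3). BRG1, the product of SMARCA4, is a catalytic subunit of SWI/SNF complexes, which move nucleosomes with energy from ATP. Both groups had the same parental line, the same pLKO vector type and the same time of 48 h between infection and RNA extraction, and 1 shBRG1 vector is described, so effects of the hairpin outside its target cannot be told apart from those of BRG1 loss. The genes were chosen by symbol: NUP, IPO, XPO, KPNA, KPNB, TNPO or NXF followed by a digit, together with TPR, SEH1L, SEC13, RAE1, RAN, AAAS and NDC1. The rule found 91 genes in the RefSeq gene table, of which 53 of the 14883 genes with a named probe set were measured. These were 25 of 29 protein-coding pore genes, 24 of 27 protein-coding transport receptor genes, and 4 of 34 matches that are pseudogenes or long non-coding RNAs. AAAS, NUP62, SEC13, TPR, KPNA2, NXF1, XPO1 and RAN were not analysed here.

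The nuclear pore complex is a ring-shaped channel through the nuclear envelope. Membrane nucleoporins anchor it, the Y complex and the inner ring form its scaffold, and nucleoporins with phenylalanine-glycine repeats line the channel and its cytoplasmic and nuclear faces. Transport receptors carry cargo through that mesh: importin alpha adaptors and importin beta family members bring proteins in, exportins carry proteins and RNA out, and the gradient of the GTPase Ran sets the direction. Dividing cells, such as those of this line, take the pore apart and rebuild it at each mitosis.

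Expression is given as the log2 value of a gene's probe set, normalised by RMA, and a change is a difference of group means on that scale, positive where shBRG1 was higher. A gene passed, or was called, when its p from limma, adjusted by Benjamini and Hochberg over all 14883 genes, was below 0.05. The probe set of SMARCA4 was not analysed here, so depletion of the target was not checked and the samples are described by their labels. Whether the triplicates came from separate cultures is not stated in the labels, so a p-value rests on the variation among these arrays alone, and that may be technical. Array medians over 52299 probe sets lay between 3.77 and 3.84. Among the markers of neuroblasts of the adrenergic type 9 of 11 were measured, and 6 of the 9 fell. The other 3, GATA3 (0.21, adjusted p = 0.068), TH (0.11) and DBH (0.08), were higher without passing. CHGB, which fell, lost its call in 5 of the 6 fits that left out 1 array. The mean level of the 9 markers was 9.47 to 9.50 in NSC and 9.23 to 9.27 in shBRG1, whereas CD14, the measured leukocyte marker of 4 listed, lay between 4.39 and 4.90. Of 10 proliferation markers 6 fell, among them MKI67 (log2 change -0.50, adjusted p = 0.0024), and MCM2 (0.15) was higher without passing. TOP2A (-0.25) fell, but lost its call in all 6 fits that left out 1 array. The mean level of the 10 markers was 9.46 to 9.50 in NSC and 9.20 to 9.21 in shBRG1. Among all genes with a level above that of the median gene, where both lists lie, 11.9% were called lower and 17.4% higher. Of 4 measured of 6 mesenchymal or fibroblast markers, DCN (0.44) and LUM (0.39) rose, and PRRX1 (0.32, adjusted p = 0.052) and THY1 (-0.07) did not pass. LUM lost its call in 4 of the 6 fits that left out 1 array. The mean level of the 4 markers was 6.03 to 6.22 in NSC and 6.37 to 6.45 in shBRG1. The 2 measured Schwann cell markers of 4 did not pass (mean level 4.79 to 4.84 and 4.31 to 4.55). The part of these differences in the results below was not tested.

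Pore genes that changed were mostly higher after the BRG1 hairpin, by small amounts. Of 25 pore genes 9 rose, 1 fell and 15 did not pass, and of 24 transport receptor genes 5 rose, 1 fell and 18 did not pass. Over all genes 17.0% passed, 9.78% as higher and 7.19% as lower. Most of these genes, 23 of 25 and 20 of 24, had a level above that of the median gene, and among all such genes 29.2% passed, 17.4% as higher and 11.9% as lower. Of the 23 pore genes above the median gene 43.5% passed, and of the 20 receptor genes 30.0%, which is near that background. Neither share was tested against it. In bulk RNA, a change in the make-up of the culture and a change in RNA per cell cannot be told apart. The median log2 change was 0.16 for pore genes, 0.09 for receptor genes, 0.06 for genes above the median gene and 0.01 for all genes. The largest rises were in the membrane nucleoporins NUP210 (1.39-fold) and NDC1 (1.31-fold) and in the exportin XPO7 (1.30-fold), and the falls were in the channel nucleoporin NUP58 (1.41-fold lower) and the importin alpha KPNA5 (1.51-fold lower). These 5 genes had adjusted p-values below 0.01 and passed under every processing alternative run. The other 11 calls lost their threshold in at least 2 of the 6 fits that left out 1 array.

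**Figure D1:**
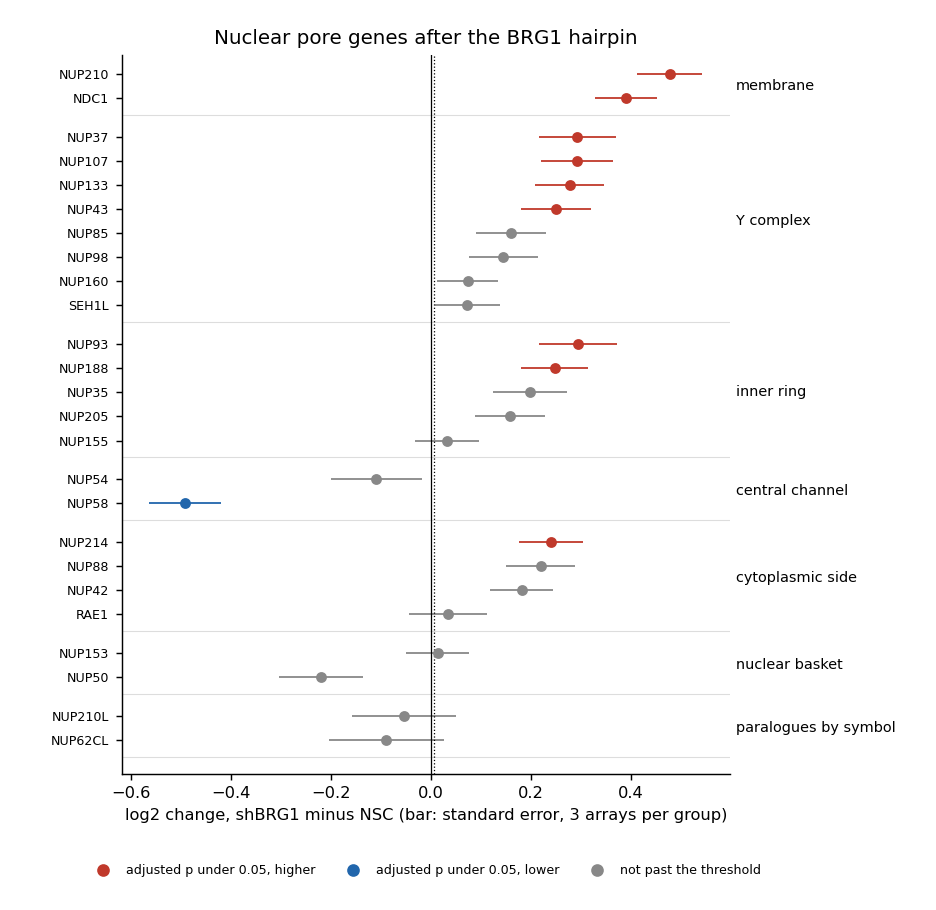
Log2 change (x axis, shBRG1 minus NSC) of each of the 25 measured pore genes, grouped by subcomplex, with the moderated standard error as a bar. Red and blue points passed as higher and lower, grey points did not pass, the solid line marks 0 and the dotted line the median of all genes, 0.01. All 8 Y complex genes and all 5 inner ring genes lie right of 0, and both central channel genes lie left of it. Of all genes above the median gene, where these genes lie, 58.9% had a change above 0.

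Both measured membrane nucleoporins of the rule rose. NUP210, the glycoprotein whose bulk lies in the lumen of the envelope, read 7.60, 7.54 and 7.52 in the NSC arrays and 7.99, 8.08 and 8.03 in the shBRG1 arrays. All 3 shBRG1 arrays were above all NSC arrays, a separation found in 35.5% of all genes (20.3% above and 15.3% below), and the change was 0.48 (SE 0.07, adjusted p = 0.0034). NDC1, which anchors the pore in the membrane and is needed for its assembly, read 9.30, 9.26 and 9.27 in NSC and 9.67, 9.68 and 9.64 in shBRG1. The 2 groups were separated by far more than their internal spread (SD 0.02 in each), with a change of 0.39 (SE 0.06, adjusted p = 0.0059). POM121 and POM121C, membrane nucleoporins outside the symbol rule, rose as well. POM121C read 4.80, 4.89 and 5.11 in NSC and 5.78, 5.58 and 5.65 in shBRG1 (change 0.74, SE 0.10, adjusted p = 0.0032). POM121 read 6.87, 7.06 and 6.65 in NSC and 7.22, 7.52 and 7.42 in shBRG1 (change 0.53, SE 0.12, adjusted p = 0.025). They are near-identical copies, so their probe sets may measure the same transcripts. POM121 no longer passed when NSC replicate 1, NSC replicate 3, shBRG1 replicate 2 or shBRG1 replicate 3 was omitted (adjusted p 0.023 to 0.081 over the 6 omissions).

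Promoter sequences were read for motifs that are common upstream of housekeeping genes. The 250 bases before the gene's start are printed for the 2 membrane nucleoporins that rose, for NUP107 as a Y complex gene that rose, for NUP58 as the pore gene that fell, and for IPO4 as a receptor gene that rose. The sequences are from RefSeq (GRCh38.p14), 5′ to 3′ along the gene, and capitals mark matches on either strand to 5 searched motifs: the E-box CACGTG, the ETS core CCGGAAG, the CCAAT box, and the longer NRF1 and YY1 motifs, given by name.
NUP210 (chr3:13420323-13420572, minus strand): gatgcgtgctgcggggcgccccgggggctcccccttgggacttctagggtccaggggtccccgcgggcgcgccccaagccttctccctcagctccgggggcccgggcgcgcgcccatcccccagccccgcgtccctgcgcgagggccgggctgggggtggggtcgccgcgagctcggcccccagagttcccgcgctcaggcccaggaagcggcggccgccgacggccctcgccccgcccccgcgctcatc
NDC1 (chr1:53838297-53838546, minus strand): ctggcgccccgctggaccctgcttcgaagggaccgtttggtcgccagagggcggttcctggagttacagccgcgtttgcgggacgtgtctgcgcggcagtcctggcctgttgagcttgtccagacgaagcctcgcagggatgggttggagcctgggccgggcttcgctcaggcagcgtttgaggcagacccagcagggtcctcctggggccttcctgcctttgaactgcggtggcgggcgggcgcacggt
NUP107 (chr12:68686728-68686977, plus strand): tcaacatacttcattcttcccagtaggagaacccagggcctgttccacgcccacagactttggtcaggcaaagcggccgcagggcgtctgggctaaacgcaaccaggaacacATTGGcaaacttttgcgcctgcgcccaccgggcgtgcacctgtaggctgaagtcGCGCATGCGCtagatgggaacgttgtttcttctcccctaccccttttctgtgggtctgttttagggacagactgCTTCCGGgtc
NUP58 (chr13:25301375-25301624, plus strand): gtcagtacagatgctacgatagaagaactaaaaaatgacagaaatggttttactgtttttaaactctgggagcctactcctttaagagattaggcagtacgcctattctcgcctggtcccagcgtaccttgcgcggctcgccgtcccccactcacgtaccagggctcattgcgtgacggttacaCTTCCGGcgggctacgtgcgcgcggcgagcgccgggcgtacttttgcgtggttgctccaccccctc
IPO4 (chr14:24188817-24189066, minus strand): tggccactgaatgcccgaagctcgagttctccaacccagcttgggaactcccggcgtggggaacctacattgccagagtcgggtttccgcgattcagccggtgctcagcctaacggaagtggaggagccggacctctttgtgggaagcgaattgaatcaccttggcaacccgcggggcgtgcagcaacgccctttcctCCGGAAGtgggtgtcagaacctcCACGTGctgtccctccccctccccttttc
NUP210 and NDC1, which rose most among pore genes of the rule, held none of the 5 motifs in this window, and GC made up 80.8% of the NUP210 window and 68.0% of the NDC1 window. NUP107 held 3 matches, a CCAAT box starting 138 bases, an NRF1 match 84 bases and an ETS match 10 bases before the start. The NUP58 window held an ETS match 66 bases before the start, and that of IPO4 an ETS match at 52 and an E-box at 29 bases.

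The ETS core was more frequent in pore windows than in receptor windows. It was present in 10 of 31 windows of 24 pore genes with an entry (32.3%), in 2 of 23 windows of 19 receptor genes (8.70%), in 11.4% of 13726 windows of measured protein-coding genes and in 8.52% of all 35116 windows. Among called genes the ETS core was in 4 of 16 windows of those that rose (25.0%), in the window of NUP58, which fell, and in 7 of 37 windows of genes that did not pass (18.9%). The CCAAT box was in 48.4% of pore and 43.5% of receptor windows. It was in 32.7% of windows of measured protein-coding genes and in 32.0% of all windows. E-boxes were in 2 pore windows (6.45%) and 4 receptor windows (17.4%), against 7.62% of those measured-gene windows and 6.34% of all windows. The NRF1 motif was in 2 pore windows (6.45%) and 0 receptor windows, against 1.45% and 1.03%. The YY1 motif was in 0 pore or receptor windows and in 0.248% of all windows. These are letter matches in 250 bases, windows of alternative starts of a gene can overlap, and the matches were not tested against the changes.

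Of 8 measured genes of the Y complex, the largest scaffold unit, 4 rose and 4 did not pass, with a median change of 0.21. Among all genes above the median gene 29.2% passed, 17.4% as higher. In each of the 8 all 3 shBRG1 arrays were above all 3 NSC arrays, which was so in 20.3% of all genes and in 33.8% of genes above the median gene, where all 8 lie. NUP107, a stem subunit, read 8.43, 8.25 and 8.36 in NSC and 8.63, 8.65 and 8.64 in shBRG1 (change 0.29, SE 0.07, adjusted p = 0.031). Its neighbour NUP133, at the tail of the complex, read 8.08, 8.06 and 8.17 in NSC and 8.41, 8.40 and 8.31 in shBRG1 (change 0.28, adjusted p = 0.032). The gap between groups was larger than the spread within them in both genes. NUP37, a beta-propeller subunit, rose by 0.29 (adjusted p = 0.039), from 5.80, 5.93 and 5.87 to 6.05, 6.21 and 6.21. NUP43, another propeller subunit, rose by 0.25 (adjusted p = 0.047), from 8.99, 8.97 and 9.05 to 9.19, 9.32 and 9.24. NUP85 (0.16), NUP98 (0.15, adjusted p = 0.20), NUP160 (0.07) and SEH1L (0.07) did not pass, and NUP160 moved from 7.98, 7.98 and 7.97 to 8.06, 8.05 and 8.04, a step that was small but outside a very narrow spread. NUP98 is the gene of both NUP98, a repeat nucleoporin, and NUP96, a Y complex subunit, which its probe set does not tell apart. AHCTF1, which encodes ELYS, the factor that recruits the Y complex to chromatin after mitosis, had a change of -0.06 (adjusted p = 0.64). After cyclic loess between arrays NUP133 (0.22), NUP37 (0.24) and NUP43 (0.20) no longer passed (adjusted p = 0.055, 0.076 and 0.064), and NUP107 did (0.044). When single arrays were omitted, NUP43 passed in 0 of 6 fits, NUP107 in 1 (NSC replicate 1 omitted), NUP133 in 1 (NSC replicate 3) and NUP37 in 1 (shBRG1 replicate 1), with adjusted p-values up to 0.13, 0.089, 0.10 and 0.12.

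Of the 5 genes of the inner ring, which holds the scaffold together around the channel, 2 rose and 3 did not pass. All 5 lie above the median gene, where 29.2% of genes passed, 17.4% as higher. NUP93, its central linker, read 8.69, 8.63 and 8.57 in NSC and 8.88, 9.03 and 8.85 in shBRG1 (change 0.29, SE 0.08, adjusted p = 0.039). NUP188, a large alpha-helical scaffold protein, read 9.19, 9.14 and 9.23 in NSC and 9.49, 9.41 and 9.39 in shBRG1 (change 0.25, SE 0.07, adjusted p = 0.043). The NSC and shBRG1 arrays did not overlap in either gene, and 33.8% of genes above the median gene lay wholly above the NSC range. NUP35 (0.20) and NUP205 (0.16), a paralogue of NUP188, were also above the NSC range in all 3 shBRG1 arrays but did not pass (adjusted p = 0.12 and 0.17), and NUP155 had a change of 0.03 with overlapping groups. NUP93 and NUP188 did not pass after cyclic loess (adjusted p = 0.055 and 0.067) or without any 1 of the 6 arrays (0.066 to 0.11 for NUP93 and 0.076 to 0.13 for NUP188).

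Of the 2 measured central channel genes 1 fell. Both lie above the median gene, where 29.2% of genes passed, 11.9% as lower. NUP58, a repeat nucleoporin of the central channel, read 8.35, 8.24 and 8.22 in NSC and 7.72, 7.83 and 7.79 in shBRG1. Every shBRG1 array was lower than every NSC array, as in 20.8% of genes above the median gene. The change was -0.49 (SE 0.07, adjusted p = 0.0043). NUP54, its partner in the same subcomplex, had a change of -0.11 with overlapping groups (adjusted p = 0.48).

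On the cytoplasmic side, NUP214, a platform for export factors, read 8.31, 8.30 and 8.33 in NSC and 8.53, 8.61 and 8.53 in shBRG1 (change 0.24, SE 0.06, adjusted p = 0.040). Its partner NUP88 had a change of 0.22 (adjusted p = 0.069) and NUP42 a change of 0.18 (adjusted p = 0.097), both with all shBRG1 arrays above NSC. RAE1, an mRNA export factor, overlapped (0.03, and -0.03 after cyclic loess). Of these 4 genes, all above the median gene, 1 passed, or 25.0%, beside 29.2% of genes above the median gene. Among the latter 33.8% lay wholly above the NSC range. A second probe set of NUP214 changed by 0.12 with overlapping values (6.28, 6.48 and 6.46 in NSC, 6.55, 6.35 and 6.69 in shBRG1), and the call of NUP214 was lost when both were averaged (adjusted p = 0.13), after centring (0.056) or cyclic loess (0.070), and without any 1 of the 6 arrays (0.088 to 0.11). GLE1, the activator of the mRNA export helicase at this face, was outside the symbol rule and rose more, from 7.09, 7.02 and 6.85 to 7.50, 7.54 and 7.51 (change 0.53, SE 0.08, adjusted p = 0.0051). RANBP2, the large cytoplasmic filament nucleoporin, fell from 7.48, 7.58 and 7.52 to 7.18, 7.29 and 7.26 (change -0.28, adjusted p = 0.030), a call lost without any 1 of the 6 arrays (0.056 to 0.099).

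At the nuclear basket, NUP153, which tethers the basket to the ring, read 10.19, 10.21 and 10.19 in NSC and 10.25, 10.22 and 10.17 in shBRG1. Its groups overlapped, and the change of 0.01 (SE 0.06, adjusted p = 0.92) took the opposite sign after centring and after cyclic loess. NUP50, a basket protein that helps importin alpha release its cargo, read 7.43, 7.44 and 7.57 in NSC and 7.33, 7.33 and 7.13 in shBRG1, all lower but not past the threshold (-0.22, SE 0.08, adjusted p = 0.12), and it passed as lower after cyclic loess (-0.29, adjusted p = 0.046) and with dim genes left out (0.047). Among genes above the median gene 20.8% lay wholly below the NSC range. The paralogues NUP210L and NUP62CL lay between 2.67 and 3.34 on all arrays, below the median gene, where values may be background.

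**Figure D2:**
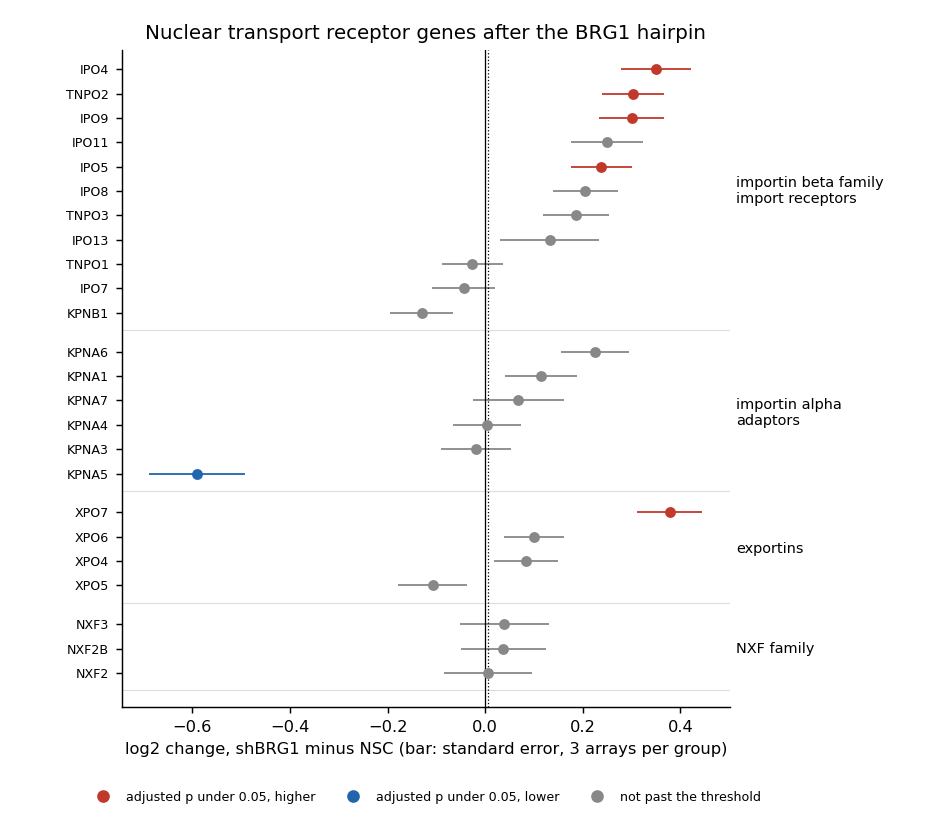
Log2 change (x axis, shBRG1 minus NSC) of each of the 24 measured transport receptor genes by family, with the moderated standard error as a bar and the colours and lines of the plot of pore genes. Import receptors range from -0.13 (KPNB1) to 0.35 (IPO4), and KPNA5 lies apart from the other importin alpha genes at -0.59.

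Of 11 measured import receptors of the importin beta family 4 rose and 7 did not pass, and the median change was 0.21. The share called was 36.4%, beside 29.2% of genes above the median gene (17.4% as higher), where all 11 lie. IPO4, an import receptor for histones and ribosomal proteins, read 8.10, 7.96 and 8.07 in NSC and 8.37, 8.45 and 8.35 in shBRG1 (change 0.35, SE 0.07, adjusted p = 0.016). TNPO2, a transportin that imports RNA-binding proteins, read 9.21, 9.16 and 9.23 in NSC and 9.49, 9.53 and 9.49 in shBRG1 (change 0.30, SE 0.06, adjusted p = 0.016). IPO9, which imports core histones and actin, read 9.79, 9.72 and 9.73 in NSC and 10.11, 10.04 and 10.00 in shBRG1 (change 0.30, SE 0.07, adjusted p = 0.021). The groups of these 3 genes did not overlap, and 33.8% of genes above the median gene likewise lay wholly above the NSC range. All 3 also passed after centring and after cyclic loess. Without 1 array, IPO4 was lost with NSC replicate 2 or shBRG1 replicate 2 left out (adjusted p 0.035 to 0.054 over the 6 fits), TNPO2 with NSC replicate 2 or any shBRG1 array (0.043 to 0.053), and IPO9 with NSC replicate 2, NSC replicate 3, shBRG1 replicate 1 or shBRG1 replicate 2 (0.047 to 0.075).

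KPNB1, importin beta itself and the receptor that pairs with importin alpha, read 11.56, 11.56 and 11.50 in NSC and 11.44, 11.37 and 11.42 in shBRG1. All shBRG1 arrays were lower, as in 20.8% of genes above the median gene. The change of -0.13 (SE 0.06) did not pass (adjusted p = 0.22), except with trend and robust options (0.0061, in a range of 0.0061 to 0.40 over the alternatives). TNPO1 (-0.03) and IPO7 (-0.04) had overlapping groups. IPO5, a ribosomal protein importer, had 2 probe sets that disagreed: the brighter rose from 5.11, 5.08 and 5.06 to 5.33, 5.30 and 5.34 (change 0.24, adjusted p = 0.039), and the other went from 4.92, 4.75 and 4.81 to 4.79, 4.96 and 4.95 (0.07) with overlapping groups. Both were near or below the median gene (5.09), and the call was lost when they were averaged (adjusted p = 0.17), after centring (0.051), with trend and robust options (0.11) and without any 1 of the 6 arrays (0.076 to 0.11). IPO11 (0.25), IPO8 (0.21) and TNPO3 (0.19) were above the NSC range on all shBRG1 arrays without passing (adjusted p = 0.056, 0.078 and 0.10), and all 3 passed with dim genes left out. Among genes above the median gene 33.8% lay wholly above the NSC range.

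Of 6 measured importin alpha adaptors, which bind the classical nuclear localisation signal, 1 passed, KPNA5. That is 16.7%, beside 17.0% of all genes and 29.2% of those above the median gene, where 5 of the 6 lie. KPNA5 read 7.30, 7.05 and 7.16 in NSC and 6.67, 6.63 and 6.43 in shBRG1, with no overlap (change -0.59, SE 0.10, adjusted p = 0.0070). KPNA6, which is of the same subfamily, had a change of 0.23 with all shBRG1 arrays above NSC (adjusted p = 0.067), and KPNA1, the remaining gene of that subfamily, 0.11 (adjusted p = 0.35). Among genes above the median gene 20.8% lay wholly below and 33.8% wholly above the NSC range. KPNA3 (-0.02) and KPNA4 (0.00), which form another subfamily, had overlapping groups. KPNA7 lay between 2.93 and 3.22, below the median gene.

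Of 4 exportins 1 rose, or 25.0%, beside 29.2% called among genes above the median gene, where all 4 lie. XPO7, which exports and also imports a broad set of proteins, read 9.03, 9.04 and 9.01 in NSC and 9.37, 9.48 and 9.37 in shBRG1, well apart (change 0.38, SE 0.07, adjusted p = 0.0087). XPO6, the exporter of actin (0.10, adjusted p = 0.33), XPO5, the exporter of microRNA precursors (-0.11, adjusted p = 0.36), and XPO4 (0.08, adjusted p = 0.46) did not pass. The NXF family, whose founding member exports bulk mRNA, was represented by NXF2, NXF2B and NXF3, which lay between 2.43 and 3.37 on all arrays. NXF2 and NXF2B are near-identical copies whose probe sets may not tell them apart.

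**Figure D3:**
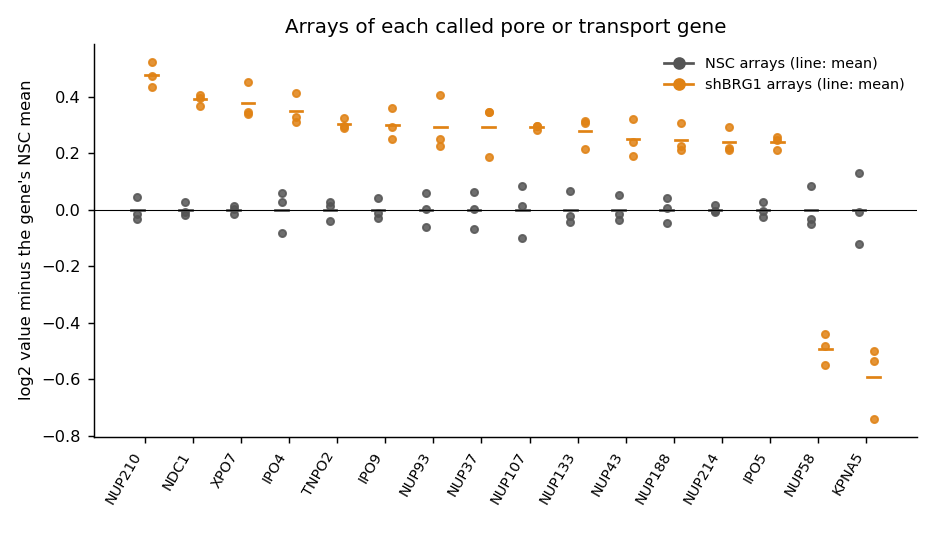
Log2 value of each array minus the gene's NSC mean (y axis) for the 16 called pore and receptor genes, ordered by change, with NSC arrays in grey, shBRG1 arrays in orange and group means as short lines. The 3 shBRG1 arrays of every gene lie outside the range of its NSC arrays, from NUP210 at the left to NUP58 and KPNA5 at the right. The genes were chosen by their p on these same arrays, so the separation adds nothing to the calls. It was found in 35.5% of all genes.

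The median change of pore genes exceeded that of transport receptors by 0.07, and by 0.04 after cyclic loess, a difference that was not tested. The mean over the 25 pore genes was 7.75, 7.75 and 7.78 in the NSC arrays and 7.86, 7.92 and 7.86 in the shBRG1 arrays, and that over the 24 receptor genes 7.68, 7.64 and 7.63 and then 7.76, 7.76 and 7.70. Both means were higher on every shBRG1 array than on any NSC array, while the mean of all genes overlapped (5.31 to 5.33 in NSC and 5.32 to 5.34 in shBRG1). RMA gives every array nearly the same distribution, so the mean of all genes had little room to differ. Genes above the median gene, where most of these genes lie, had a median change of 0.06. Their mean per array was not computed. The pore mean minus the receptor mean was 0.06, 0.10 and 0.14 in NSC and 0.10, 0.16 and 0.16 in shBRG1, so the groups overlapped in that difference. Of the pore genes 17 lay wholly above and 2 wholly below the NSC range, and of the receptors 11 above and 2 below. Over all genes 20.3% lay wholly above and 15.3% wholly below, and among genes above the median gene, where 23 of the pore and 20 of the receptor genes lie, 33.8% and 20.8%.

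The size of the pore count depended on scaling. After cyclic loess, which equalises arrays at each intensity, 3 pore genes (NUP210, NDC1 and NUP107) were higher and 2 (NUP58 and NUP50) lower, the receptor count stayed at 5 higher and 1 lower, and 8.24% of all genes were called higher and 8.90% lower. After centring each array on its median, 5 pore and 4 receptor genes were higher, with 8.63% of all genes called higher and 7.73% lower. With dim genes left out 12 pore and 9 receptor genes were higher, in a fit that called 43.0% of the genes kept and 26.6% as higher and 16.4% as lower. The count of higher pore genes was 2 or 3, and that of higher receptor genes 1 to 4, when any 1 of the 6 arrays was left out, lowest without NSC replicate 2 or shBRG1 replicate 2 (2 pore and 1 receptor gene each).

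**Figure D4:**
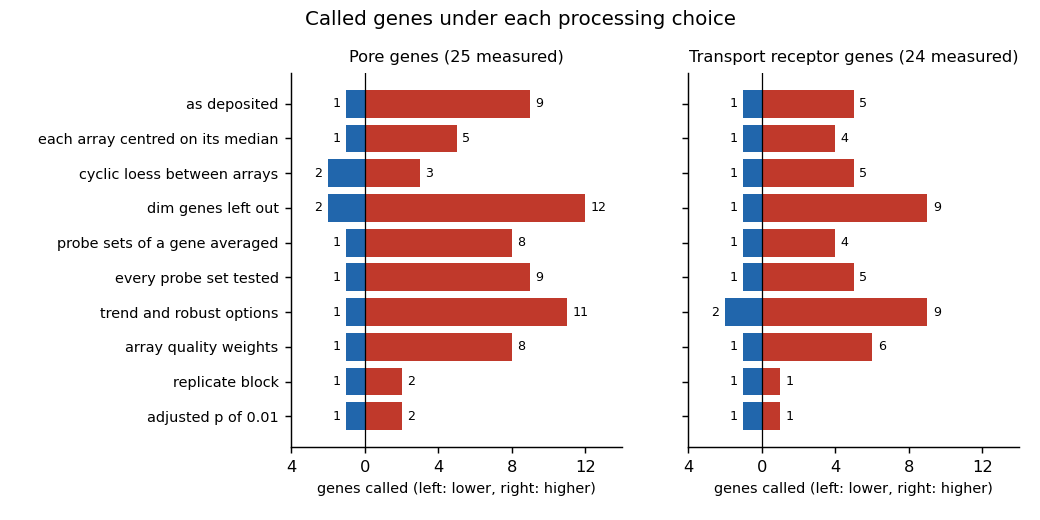
Number of pore (left) and receptor (right) genes called lower (blue, to the left of 0) and higher (red, to the right) under each processing choice. Calls of higher pore genes range from 2 to 12 and those of receptors from 1 to 9, whereas lower calls stay at 1 or 2.

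Of 51 measured genes of 4 companion lists 7 rose and 7 fell, or 27.5%. That pooled share is near the 29.2% called among all genes above the median gene, where 50 of the 51 lie. The lists differed, from 16.7% called in the Ran cycle list to 66.7% among the other pore genes. None of these shares was tested. Among 9 of 12 other pore and pore-associated genes 4 rose and 2 fell. GLE1, POM121C, POM121 and RANBP2 are given above, DDX19B, an mRNA export helicase at the cytoplasmic face, rose by 0.25 (adjusted p = 0.0499), and SENP1, a SUMO protease found at the pore, fell from 9.09, 9.01 and 9.12 to 8.80, 8.81 and 8.76 (change -0.28, adjusted p = 0.026). Among 12 of 14 genes of the Ran cycle and other receptors, RANGRF, which encodes the Ran-binding protein MOG1, fell (-0.47, adjusted p = 0.033) and RANBP3, a cofactor of export, rose (0.29, adjusted p = 0.048), and the remaining 10 did not pass, among them RANGAP1 (-0.06), RANBP1 (-0.11) and the importin alpha recycler CSE1L (0.11). With 1 array omitted, DDX19B and RANBP3 passed in 0 of 6 fits (adjusted p 0.072 to 0.13 and 0.070 to 0.13), SENP1 passed in 1, that without NSC replicate 2 (0.040 to 0.088), and RANGRF in 1, that without shBRG1 replicate 2 (0.0089 to 0.10).

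Of 17 measured of 23 mRNA export genes 2 fell and 1 rose, or 17.6%, beside 17.0% of all genes and 29.2% of those above the median gene, where all 17 lie. FYTTD1, the adaptor UIF that hands mRNA to the NXF1 export receptor, had the largest change of all genes described here, from 9.02, 8.89 and 8.93 in NSC to 7.48, 7.58 and 7.54 in shBRG1, or 2.66-fold lower (change -1.41, SE 0.07, adjusted p = 1.5e-04). PHAX, the adaptor for export of small nuclear RNA, fell from 9.89, 9.78 and 9.85 to 9.36, 9.32 and 9.25 (change -0.53, SE 0.07, adjusted p = 0.0028). THOC5, a subunit of the THO complex that couples transcription to export, rose from 9.16, 9.06 and 9.27 to 9.59, 9.53 and 9.58 (change 0.40, SE 0.08, adjusted p = 0.011). The other THO subunits THOC1 (0.01), THOC2 (-0.01), THOC6 (-0.10) and THOC7 (0.06) and the adaptor ALYREF (0.05) did not pass.

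Of 13 of 17 genes of the nuclear envelope and lamina, the meshwork to which pores are attached, 2 fell and 1 rose, or 23.1%, beside the same 29.2% for genes above the median gene, where all 13 lie. LMNA, the A-type lamin gene, fell from 6.52, 6.42 and 6.44 to 5.98, 6.15 and 5.96 (change -0.43, SE 0.08, adjusted p = 0.0096). LMNB1, a B-type lamin, fell from 9.84, 9.78 and 9.83 to 9.41, 9.49 and 9.48 (change -0.35, SE 0.06, adjusted p = 0.0099). Neither lamin overlapped between groups, and 20.8% of genes above the median gene lay wholly below the NSC range. LMNB2 had a change of -0.14 (adjusted p = 0.18). TOR1AIP2, which encodes a torsin activator, rose by 0.33 (adjusted p = 0.025), which did not hold when replicate 2 or 3 of either group was omitted (0.038 to 0.085). The related TOR1AIP1 had a change of 0.02 with overlapping groups (adjusted p = 0.85).

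**Figure D5:**
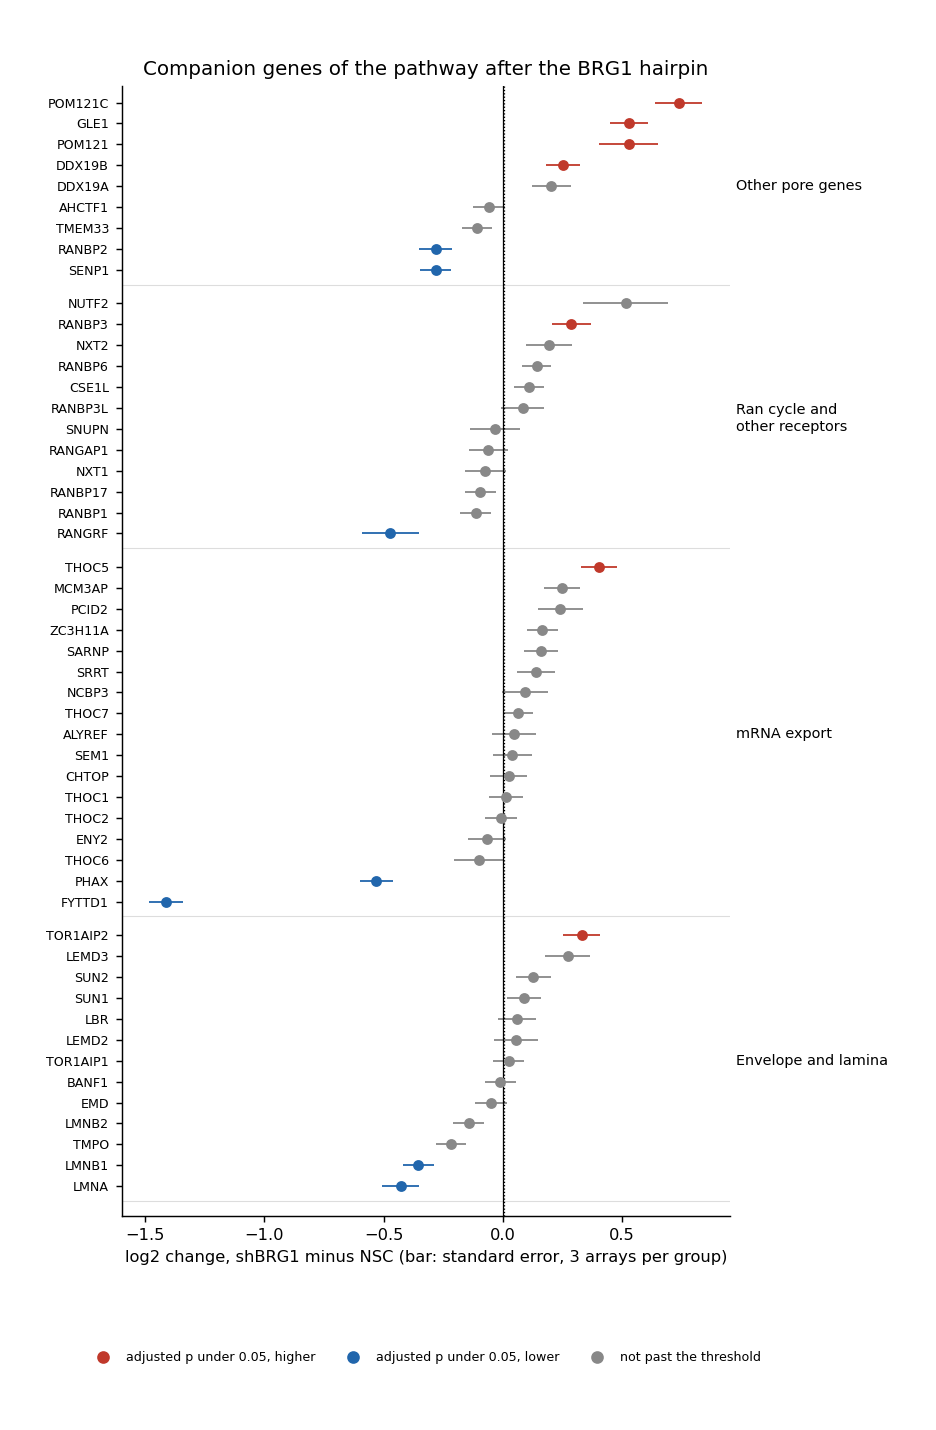
Log2 change (x axis, shBRG1 minus NSC) of the 51 measured companion genes in 4 lists, with the moderated standard error as a bar and the colours and lines of the plot of pore genes. POM121C (0.74) and FYTTD1 (-1.41) lie at the ends, and 10 of 12 Ran cycle genes and 14 of 17 mRNA export genes are grey.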

How the data were processed

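The 6 arrays are single-colour Affymetrix arrays hybridised with 200 ng of total RNA each, per the labels' protocols. Each array's deposited file holds log2 values of its probe sets, which the authors made with RMA, oligo 1.27, limma 3.19 and R 3.1.0, per the submitters' processing notes. The log2 scale was taken from their range, 1.19 to 13.8. RMA gives every array nearly the same distribution of values, which hides a change common to all transcripts. Scanner files, detection calls and array batches were not used here, and no source used here names the genome build of the probes. The precision is limited by the number of arrays, 3 per group.

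Of 52299 probe sets, 15828 had 1 gene symbol in the platform annotation, 0 had several and 36471 none. All 15828 matched a gene identifier in the GRCh38.p14 gene table. Each gene was represented by its brightest probe set (mean of the 6 arrays), which left 14883 genes. Each gene was fitted by lmFit and eBayes of limma 3.58.1, run in R 4.3.3 (two-sided, shBRG1 against NSC without covariates), with Benjamini-Hochberg adjustment over all genes. Members, lists, the naming rule and alternatives were chosen with earlier results of these data known. The text names every called member whose groups do not overlap, KPNB1, NUP98 and NUP153 in any case, and up to 4 called genes per companion list. DDX19B, RANBP2 and the genes that did not pass are named outside that rule, after their values were seen. Promoter entries were matched by gene identifier. In simulated data of 14883 genes for this comparison, the test recovered 44 of 100 genes given a log2 change of 0.5 and 85 of 100 given a log2 change of 1, with 3 unchanged genes among 132 calls. The simulation changed 200 genes, whereas 2525 were called in the data, so its recovery does not carry over directly. Changes below 0.5, as most called members had, were not simulated. Matplotlib 3.10.9 under Python 3.11.15 drew the figures. Alternatives were 2 other scalings, a filter on dim genes, averaged and separate probe sets, trend and robust options, array weights, a replicate block, leaving out each array, and an adjusted p of 0.01.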

Additional observations from a re-analysis of the deposited data

How the results depend on the processing

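Higher pore genes numbered 9, and 5 after centring, 3 after cyclic loess, 2 with the replicate number as a block and 2 at an adjusted p of 0.01; lower pore genes numbered 1, and 2 with dim genes left out and also after cyclic loess. Higher receptor genes numbered 5, and 9 with trend and robust options, 9 without dim genes, and 1 with the block or at 0.01; lower receptor genes numbered 1, and 2 with trend and robust options. All 53 members together gave 14 higher, and 9 after centring, 8 after cyclic loess, 3 with the block and 3 at 0.01. The companion lists gave 7 higher and 7 lower, and 12 higher with dim genes left out, 14 with trend and robust options, 4 and 4 with the block, and 2 and 4 at 0.01. Leaving out 1 array gave 3 to 7 higher and 2 lower members, 2 to 3 higher and 1 lower pore genes, 1 to 4 higher and 1 lower receptor genes, and 3 to 5 higher and 4 to 5 lower companion genes.

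The pore median moved from 0.16 to 0.11 after cyclic loess and the receptor median from 0.09 to 0.12 with dim genes left out. Without 1 array they ranged from 0.15 to 0.18 and from 0.07 to 0.11, and their difference from 0.05 to 0.10. NUP153 changed sign, to -0.0040 after centring, -0.016 after cyclic loess and -0.0038 without shBRG1 replicate 1, in a range of -0.0038 to 0.036 over the fits without 1 array. The receptor median with dim genes left out is that of the 20 genes kept, each with the same change as before. The cause of the other differences was not tested. Fewer arrays remain when 1 is left out, and the block uses up residual degrees of freedom. Same-numbered arrays did not deviate together (correlations over genes -0.04, -0.14 and -0.03). With so few arrays per group, weak correlations cannot exclude that same-numbered samples were handled together, so whether the numbers pair the samples was not settled. Under the block NUP210, NDC1, NUP58, KPNA5 and XPO7 were the members that passed. Among dim genes, such as the NXF genes, signal near background limits what a change can show.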

Other observations

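The 4 matches to the symbol rule that are not protein-coding had overlapping groups. NUP50-DT, a long non-coding RNA divergent from NUP50, read 6.70, 6.71 and 6.93 in NSC and 6.73, 6.96 and 6.90 in shBRG1 (change 0.08, limma adjusted p = 0.65), beside the change of -0.22 in NUP50. The pseudogenes NUP210P1, NXF4 and NXF5 lay between 2.23 and 3.65 on all arrays, below the median gene.

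NUTF2, which encodes NTF2, the importer of Ran, had a larger spread than its neighbours in the Ran list: it read 5.40, 4.80 and 5.54 in NSC and 5.82, 5.77 and 5.70 in shBRG1 (change 0.52, SE 0.18, limma adjusted p = 0.092). The thymopoietin gene TMPO, whose products bind the lamina, read 9.15, 9.10 and 9.14 in NSC and 8.90, 8.94 and 8.91 in shBRG1, all lower on a narrow spread (change -0.22, SE 0.06, limma adjusted p = 0.052). Both were chosen after their values were seen.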
